A study of Homo sapiens with 12 samples.

Results

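The 37 genes described here encode aminoacyl-tRNA synthetases of human cells, and they were chosen by symbol alone, by a rule that uses no measured value. Earlier results of these data were known when the genes were chosen. A symbol was taken when it was the one-letter code of an amino acid followed by ARS, with or without a closing 1 or 2, or when it was EPRS1, FARSA, FARSB or FARS2. TARS3, a further synthetase gene, did not match this rule and is counted below among the other genes of tRNA charging. The symbols came from the 37858 genes of the table of translation efficiency and were joined by Ensembl identifier to the 58735 genes of the count table. Of the 37 genes, 20 encode cytosolic enzymes and 17, with symbols that end in 2, encode mitochondrial enzymes. The cells were 293T4A, a line of 293T human embryonic kidney cells that carries a doxycycline-inducible 4EBP1-4A, a form of the eIF4E-binding protein 4EBP1 whose phosphorylated residues are changed to alanine. Cells were given DMSO (untreated controls) or doxycycline (DOX) at 2 mg/mL, and cycloheximide for 10 min before harvest in both groups. The sample labels give 12 h of treatment, the description of the series gives 2 h, and the results text of the study gives a longer time than either, so the time is uncertain. Each group had 3 RNA-seq libraries of total RNA and 3 Ribo-seq libraries of ribosome-protected fragments, 12 libraries in all. The controls carry the same construct without the drug, and no doxycycline-treated cells without the construct were analysed here, so effects of the drug and of 4EBP1-4A cannot be told apart. The sources used here do not say whether the line is a single clone, and the p-values below measure only the spread between these libraries.

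An aminoacyl-tRNA synthetase joins an amino acid to its own tRNA, and the charged tRNA then carries the amino acid to the ribosome. Cytosolic synthetases serve the translation of nuclear mRNAs, and mitochondrial synthetases, also encoded in the nucleus, are imported to serve the translation of the few mRNAs of the mitochondrial genome. GARS1 and KARS1 each encode both the cytosolic and the mitochondrial enzyme, for glycine and lysine. EPRS1 is a single protein that charges both glutamate and proline tRNAs, and FARSA and FARSB are the alpha and beta subunits of a single enzyme for phenylalanine. 8 of the cytosolic enzymes (among them EPRS1, IARS1, KARS1, LARS1, MARS1, QARS1 and RARS1) are held in the multi-tRNA synthetase complex on the scaffold proteins AIMP1, AIMP2 and EEF1E1. Many cytosolic synthetase genes are known targets of ATF4, the transcription factor of the amino acid response, which binds a C/EBP-ATF response element in their promoters.

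The promoters were read first, because this element is the known link between the synthetase genes and that response. RefSeq windows on GRCh38.p14, from 250 bases before to 50 bases after each start site, matched 30 of the 37 genes; AARS2, LARS1, VARS1, VARS2 and YARS1 were among those not matched. The core of the element, TGATGNAA, was searched on both strands of every window of a gene. It was found in 8 of the 30 genes (26.7%), against 1217 of all 27305 genes with a window (4.46%). By class it was found in 7 of 16 cytosolic genes (43.8%) and in 1 of 14 mitochondrial genes (7.14%), YARS2. A match describes letters only and does not show binding. The matches are printed below with 10 flanking bases on each side, 5′ to 3′ on the strand that carries the element, with the element in capitals, to show which letters the matches share: 6 of the 7 cytosolic ones read TGATGCAA, GARS1 reads TGATGAAA and YARS2 TGATGGAA.
AARS1, chr16:70289676-70289703, + strand: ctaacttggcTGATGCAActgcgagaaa
CARS1, chr11:3057408-3057435, + strand: tcctagaatcTGATGCAAccgccgcccc
GARS1, chr7:30594835-30594862, - strand: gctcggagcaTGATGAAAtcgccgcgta
IARS1, chr9:92293693-92293720, + strand: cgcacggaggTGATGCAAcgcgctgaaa
MARS1, chr12:57488054-57488081, - strand: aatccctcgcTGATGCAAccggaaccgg
NARS1, chr18:57621805-57621832, - strand: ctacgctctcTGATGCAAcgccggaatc
TARS1, chr5:33440957-33440984, - strand: ctggaccagcTGATGCAAtcgaaaggcg
YARS2, chr12:32756077-32756104, - strand: tccacactgcTGATGGAAaaattaagtt

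The RNA-seq libraries had 51519700 to 57824136 reads on genes with DMSO and 21687906 to 47862104 with DOX, the lowest in DOX replicate 3. DOX replicate 3 stood apart from the other libraries: only 5.94% of its reads were counted on genes, against up to 30.8% elsewhere, and 88.4% were aligned to more than 1 place. The other DOX libraries differed from DMSO in the same direction by less. Reads aligned to more than 1 place were 54.9% to 62.3% with DMSO and 65.4% and 69.9% in DOX replicates 1 and 2, reads on genes 25.2% to 30.8% against 22.9% and 19.7%, and reads of mitochondrial genes 14.3% to 15.8% of gene reads against 13.6% and 11.8%. These signs therefore move with the treatment also without DOX replicate 3, and their part in the results was not tested. The main results are given with and without this library. Of the 7 marker genes of 293T cells, all were detected in RNA-seq, from KRT8 at 6.49 CPM to VIM at 788 CPM with DMSO (NEFL at 104 CPM). Of 12 markers of blood, fibroblast, skin, endothelial and liver cells, 9 averaged under 1 CPM (KRT5 and KRT14 at 0). The others were COL1A1, COL3A1 and KRT10, at 8.96, 2.52 and 5.32 CPM with DMSO, and COL1A1 was at 25.5 CPM in DOX replicate 3. The 12 together summed to 16.5 to 18.5 CPM with DMSO and 18.4 to 32.2 CPM with DOX. EIF4EBP1, the gene of 4EBP1, was at 153, 154 and 168 CPM with DMSO and 257, 279 and 285 CPM with DOX (CPM is the share of a library's gene reads, after scaling with TMM factors of edgeR), so the induced gene followed the labels.

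All 37 synthetase mRNAs were expressed, and the family took an almost constant share of the RNA-seq reads. Synthetase genes held 0.737%, 0.748% and 0.752% of the reads on genes in the DMSO libraries and 0.741%, 0.744% and 0.756% in the DOX libraries. The summed level of the 20 cytosolic mRNAs was 6197, 6143 and 6417 CPM with DMSO and 6011, 5958 and 5380 CPM with DOX. The summed level of the 17 mitochondrial mRNAs was 1474, 1455 and 1469 CPM with DMSO and 1465, 1463 and 1394 CPM with DOX. Every DOX library was lower in the cytosolic sum than every DMSO library, whereas the mitochondrial sums of the groups overlapped. This depended on the scaling: by library totals alone, the cytosolic sums overlapped at 5954 to 6121 CPM with DMSO and 5907 to 6067 CPM with DOX, and the mitochondrial sums did not, at 1401 to 1433 CPM against 1452 to 1531 CPM. The log2 ratio of cytosolic to mitochondrial sum was 2.09 ± 0.030 with DMSO and 2.00 ± 0.048 with DOX (each SD, n = 3), without overlap, and this ratio does not depend on the scaling. A lower level in bulk RNA does not tell fewer cells with the mRNA from less mRNA per cell.

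Levels of different genes were compared per kilobase of the canonical transcript (GENCODE release 44). With DMSO, cytosolic synthetase mRNAs had a median level of 101 CPM per kilobase and mitochondrial ones 20.5 CPM per kilobase. IARS1, which charges isoleucine tRNA, was the highest of the cytosolic class at 234 ± 9.16 CPM per kilobase (SD, n = 3), and FARSB was the lowest at 14.7 ± 0.862. The rank of FARSB rests on its canonical length of 6761 bases. In CPM without length, CARS1 was lower, at 93.7 against 99.6 for FARSB with DMSO. The mitochondrial class ran from IARS2, the isoleucine enzyme of the organelle, at 99.4 ± 1.27 CPM per kilobase (SD, n = 3), down to SARS2, for serine, at 4.15 ± 0.0404. Isoleucine thus had the most abundant mRNA in each class as sorted here by symbol. GARS1 and KARS1, sorted as cytosolic although they also encode mitochondrial enzymes, were above IARS2, at 133 and 114 CPM per kilobase.

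For 16 amino acids a cytosolic and a mitochondrial enzyme were paired by the first letter of the symbol, with FARSA taken for phenylalanine and EPRS1 for glutamate. EPRS1 also charges proline, but its pair with PARS2 is not among the 16. With DMSO, EPRS1 was at 157 and PARS2 at 8.05 CPM per kilobase. The cytosolic mRNA was higher per kilobase in all 6 RNA-seq libraries in 15 of the 16 pairs, with a median difference of 4.19-fold over all pairs with DMSO. The widest pair was that of serine, with SARS1 36.8-fold above SARS2. Among these 15, the narrowest was that of cysteine, with CARS1 1.90-fold above CARS2, and valine was next, with VARS1 1.94-fold above VARS2. The level of SARS2 carries a limit of the counting, since 48.2% of its exon bases also belong to another gene on the same strand. For VARS2 this share is 63.0%, but the gene that overlaps it is absent from the count table.

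**Figure D1:**
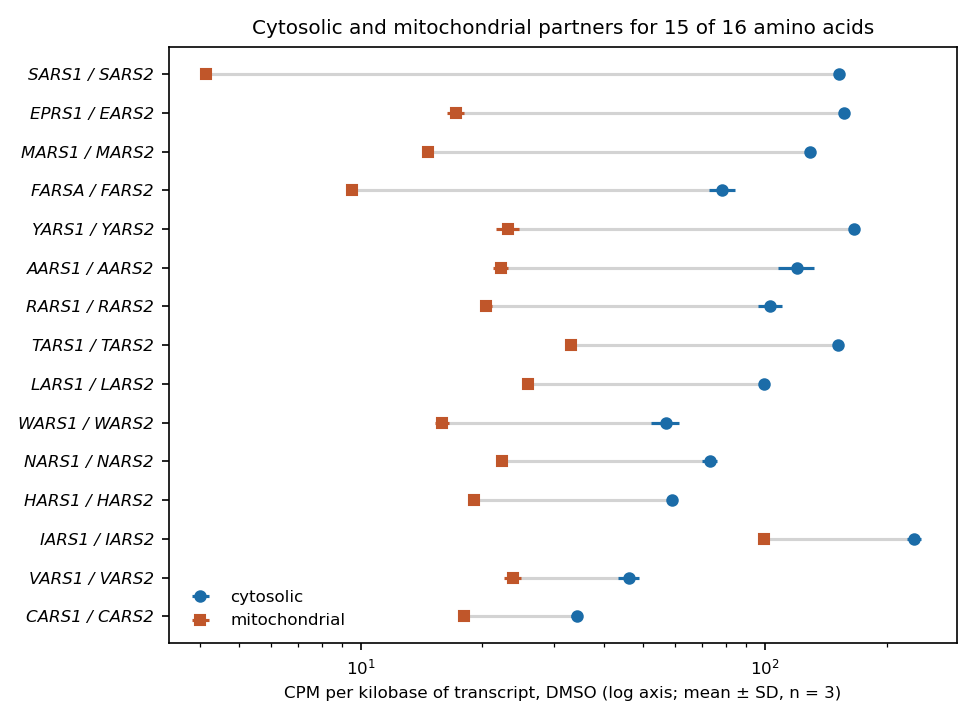
Level of cytosolic (circles) and mitochondrial (squares) synthetase mRNAs in the 3 DMSO RNA-seq libraries, in CPM per kilobase of canonical transcript on a log axis, as mean ± SD, paired by amino acid, for the 15 of the 16 pairs formed in which the cytosolic mRNA was the higher. The difference ran from 36.8-fold for serine down to 1.90-fold for cysteine.

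The first question was whether synthetase mRNAs changed in abundance with DOX. Over all 6 RNA-seq libraries, no synthetase mRNA passed the threshold (quasi-likelihood F-test of edgeR, p-values adjusted by Benjamini-Hochberg over 20552 genes, adjusted p under 0.05). The background was the same, with 0% of all genes called higher and 0% called lower, and DESeq2's Wald test also called 0 of the 37, beside 0.00487% and 0.00973% of all genes. Voom of limma with sample quality weights, which gives a library of wide spread less weight, called 7 of the 37 higher and 11 lower, beside 18.5% and 18.1% of all genes. At an unadjusted p under 0.05, 3 synthetase mRNAs were higher and 2 lower, while 10.7% of all genes were higher and 4.3% lower. The DOX libraries lay wholly above the DMSO libraries for 6 synthetase mRNAs and wholly below for 12, beside 19.7% and 18.9% of all genes. The median log2 fold change was -0.15 for the cytosolic class, with 14 of 20 below 0 (10 of 20 when scaled by library totals), and 0.049 for the mitochondrial class, with 6 of 17 below 0. The median over all genes tested was 0.0029. Within the cytosolic class, the 8 members of the multi-tRNA synthetase complex had a median of -0.21 with 6 of 8 below 0, the 9 class I enzymes (one of the folds of the catalytic domain) -0.076 (0.024 with library totals) and the 10 class II enzymes -0.16. These medians depended on the setting: the complex was at -0.061 without DOX replicate 3, -0.11 with library totals and -0.0042 with the GC and length offset described below, and class II at -0.034, -0.066 and -0.011, while class I was at -0.079 without DOX replicate 3 and -0.13 with the offset.

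DOX replicate 3 carried most of the spread. Between libraries of the DMSO group, the coefficient of variation of a synthetase mRNA had a median of 3.30%, from 0.510% for LARS1 to 10.2% for AARS1. In the DOX group the median was 13.3% and the highest 30.9%, for FARSB. In 30 of the 37 mRNAs, DOX replicate 3 was the DOX library farthest from the DMSO mean, with log2 differences from -0.92 for WARS2 to 0.90 for VARS1. The SD of these differences over the 37 mRNAs was 0.517 in DOX replicate 3, against 0.108 and 0.175 in the other DOX libraries and 0.0426 to 0.0563 in the DMSO libraries.

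**Figure D2:**
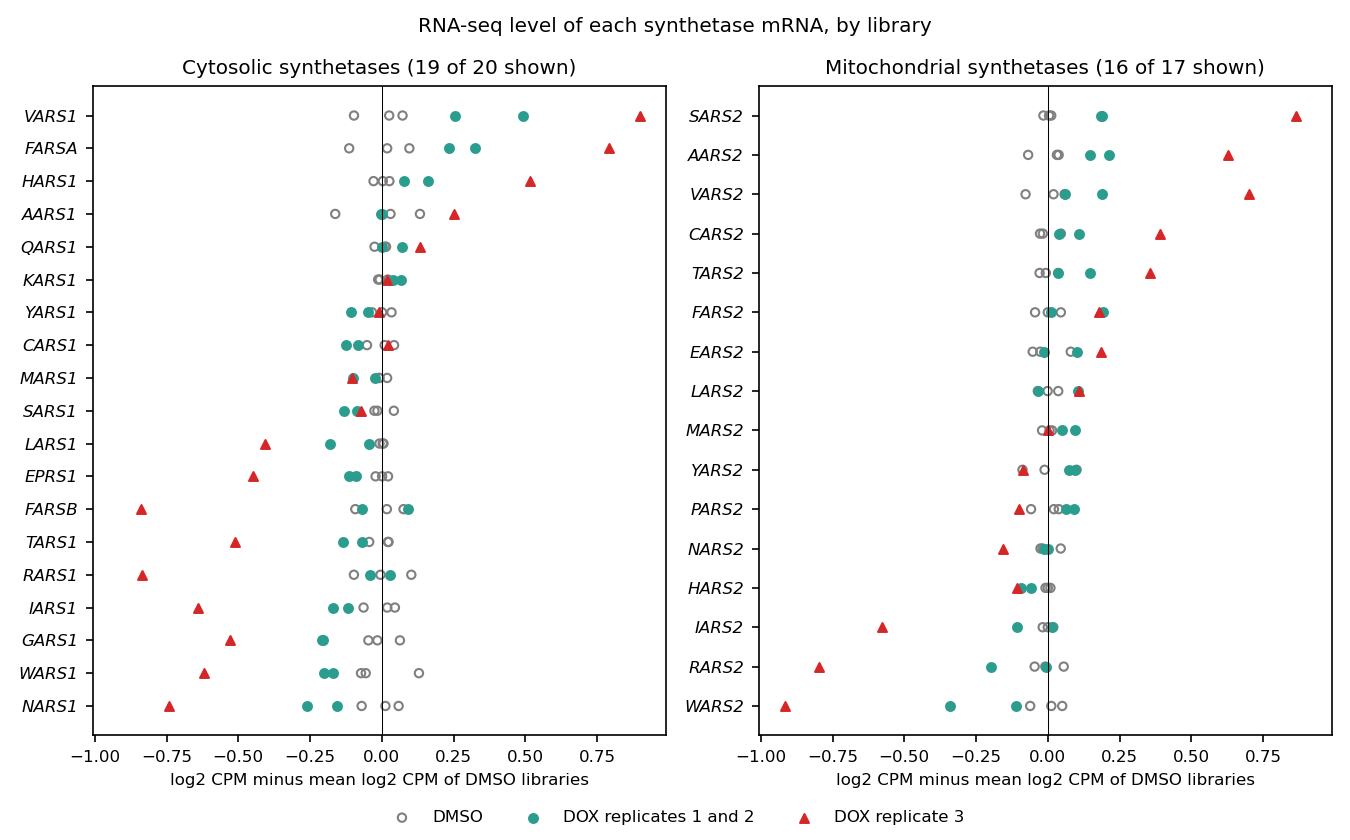
RNA-seq level of 35 of the 37 synthetase mRNAs in each library, as log2 CPM minus the mean log2 CPM of the 3 DMSO libraries (x axis), in order of their fitted change; open circles are DMSO, filled circles DOX replicates 1 and 2, triangles DOX replicate 3. DOX replicate 3 spans from -0.92 to 0.90, while DOX replicates 1 and 2 stay between -0.34 and 0.49.

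Without DOX replicate 3, 3 synthetase mRNAs were called: VARS1 and FARSA rose and GARS1 fell. Over 20459 genes tested, 3.76% were called higher and 3.29% lower, so 2 higher and 1 lower of 37 is near the background. Scaled by library totals instead, AARS2, FARSA and VARS1 were called higher and none lower, beside 7.05% and 1.66% of all genes. DESeq2 called VARS1 and FARSA higher and GARS1 and NARS1 lower, beside 4.87% and 5.15% of all genes. DOX libraries lay wholly above DMSO for 9 and wholly below for 14 synthetase mRNAs, beside 22.2% and 21.2% of all genes. The medians were -0.07 for the cytosolic class and 0.073 for the mitochondrial class, on the log2 scale, with 14 of 20 and 6 of 17 below 0.

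VARS1 encodes the cytosolic valine enzyme; its GENCODE position on GRCh38 is chr6:31777518-31795752. Its level was 177, 199 and 193 CPM with DMSO and 226, 266 and 353 CPM in DOX replicates 1, 2 and 3. Every DOX library was above every DMSO library, by a log2 fold change of 0.57 (SE 0.165, adjusted p = 0.303) over 6 libraries. With DOX replicate 3 left out, the log2 fold change was 0.38 (SE 0.0733, adjusted p = 0.0112). VARS2, the mitochondrial valine enzyme on the same chromosome, went from 80.5, 88.4 and 86.1 CPM to 88.5, 96.9 and 138 CPM, with a log2 fold change of 0.34 (adjusted p = 0.304).

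The subunits of the cytosolic phenylalanine enzyme had values of opposite sign over 6 libraries. FARSA, the alpha subunit, was at 131, 144 and 152 CPM with DMSO and at 167, 178 and 245 CPM with DOX, with no overlap (log2 fold change 0.47, SE 0.159, adjusted p = 0.303). FARSA was called higher without DOX replicate 3 (0.28, SE 0.0685, adjusted p = 0.0262). FARSB, the beta subunit, was at 105, 93.3 and 101 CPM with DMSO and at 106, 94.7 and 55.6 CPM with DOX. Only DOX replicate 3 lay below the DMSO range for FARSB, and its log2 fold change went from -0.22 (adjusted p = 0.527) to 0.01 (adjusted p = 0.947) without that library. Per kilobase, FARSA was 5.35 ± 0.590-fold above FARSB with DMSO (SD, n = 3) and 9.79 ± 5.82-fold with DOX, where the libraries were at 5.88, 7.01 and 16.5-fold, the last of them DOX replicate 3. These ratios rest on the canonical lengths, 1811 bases for FARSA and 6761 for FARSB. In CPM without length, the ratio was 1.25, 1.54 and 1.51 with DMSO and 1.58, 1.88 and 4.42 with DOX.

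GARS1, which charges glycine tRNA in both compartments, is annotated at chr7:30580533-30634033 and carries the element TGATGAAA printed above. It was at 320.3, 313 and 338 CPM with DMSO and 281, 280.1 and 224 CPM with DOX. All DOX libraries were below all DMSO libraries, and the log2 fold change was -0.31 (SE 0.114, adjusted p = 0.303). It was -0.21 without DOX replicate 3 (SE 0.0619, adjusted p = 0.0495), just inside the threshold. KARS1, the other gene that serves both compartments, was the steadiest of the DOX group, at 229.7, 225 and 224 CPM with DMSO and 233, 237 and 229 CPM with DOX. Its coefficient of variation was 1.71% over the DOX libraries, and its groups overlapped (log2 fold change 0.04, SE 0.0818, adjusted p = 0.757).

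3 further cytosolic mRNAs had the largest negative values beside GARS1. None passed the test of edgeR without an offset or replicate block, with or without DOX replicate 3 (voom with quality weights called all 3 lower over 6 libraries). Without DOX replicate 3, edgeR called NARS1 lower with a replicate block and WARS1 lower with the GC and length offset described below. NARS1, for asparagine, was at 203, 192 and 210.0 CPM with DMSO and at 181, 168 and 121 CPM with DOX (log2 fold change -0.37, SE 0.155, adjusted p = 0.303). NARS1 was just outside the threshold without DOX replicate 3 (-0.21, adjusted p = 0.0551). WARS1, for tryptophan, was at 144, 142 and 164 CPM with DMSO and at 133, 130.2 and 97.5 CPM with DOX (log2 fold change -0.32, adjusted p = 0.303). IARS1 was at 1064, 1005 and 1084 CPM with DMSO and at 968, 933 and 674 CPM with DOX (log2 fold change -0.29, adjusted p = 0.303). In each of the 3 every DOX library was below every DMSO library, and without DOX replicate 3 the log2 fold change was -0.19 for WARS1 and -0.15 for IARS1.

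**Figure D3:**
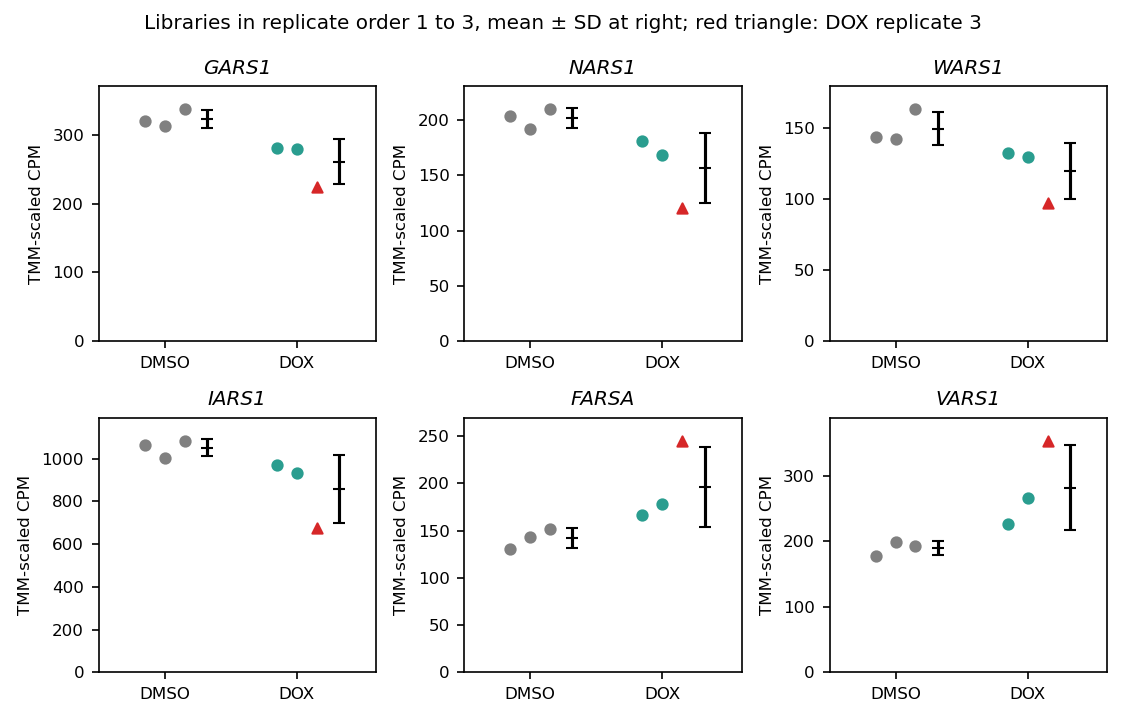
TMM-scaled CPM of 6 cytosolic synthetase mRNAs in the 3 DMSO and 3 DOX RNA-seq libraries, with the mean ± SD beside each group and DOX replicate 3 as a triangle; the axes start at 0. GARS1, NARS1, WARS1 and IARS1 are lower in every DOX library, and FARSA and VARS1 higher, with DOX replicate 3 farthest from DMSO in all 6.

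On the positive side of the cytosolic class, HARS1 and AARS1 followed VARS1 and FARSA. HARS1, for histidine, was at 112, 115 and 117 CPM with DMSO and at 121, 128 and 164 CPM with DOX, without overlap (log2 fold change 0.26, SE 0.131, adjusted p = 0.303, and 0.12 without DOX replicate 3). HARS2, its mitochondrial partner, is a neighbor on chromosome 5 on the opposite strand, and the annotated start sites, at 140691537 and 140691430, lie 107 bases apart. HARS2 was at 47.3, 47.0 and 46.8 CPM with DMSO and at 45.2, 44.1 and 43.7 CPM with DOX, so these neighbors differed in sign (log2 fold change of HARS2 -0.09, SE 0.0902, adjusted p = 0.538). The exons of the 2 genes overlap by 108 bases on opposite strands, and no source states if reads were counted by strand. HARS1 exons also share 1090 bases with WDR55 on the opposite strand and 176 with DND1 on the same strand. HARS2 exons share 152 bases with ZMAT2 on the same strand. AARS1, for alanine, was at 366, 419 and 449.6 CPM with DMSO and at 409, 410.2 and 488 CPM with DOX, with wide overlap (log2 fold change 0.08, adjusted p = 0.665).

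Among the mitochondrial enzymes, edgeR with TMM scaling and no replicate block called none, with or without DOX replicate 3. Voom with quality weights called 4 of the 17 higher and 3 lower over 6 libraries, beside 18.5% and 18.1% of all genes. Without DOX replicate 3, library totals called AARS2 higher, beside 7.05% of all genes. A replicate block without that library called 2 of the 17 higher and 2 lower, beside 10.4% and 10.9% of all genes. The largest positive values were those of SARS2, AARS2, VARS2 and CARS2. SARS2 was at 8.05, 8.01 and 7.90 CPM with DMSO and at 9.10, 9.07 and 14.5 CPM with DOX (log2 fold change 0.44, SE 0.197, adjusted p = 0.303). AARS2, for alanine, was at 102, 109 and 109 CPM with DMSO and at 118, 124 and 164 CPM with DOX (0.34, adjusted p = 0.303). Both SARS2 and AARS2 lay above DMSO in every DOX library, while CARS2, for cysteine, overlapped at 32.5, 32.7 and 34.1 CPM against 34.0, 35.7 and 43.4 CPM (0.19, adjusted p = 0.354). Without DOX replicate 3 the log2 fold changes were smaller, at 0.19 for SARS2, 0.18 for AARS2, 0.13 for VARS2 and 0.07 for CARS2.

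Among the largest negative values of the class were those of WARS2, RARS2 and IARS2. WARS2, for tryptophan, was at 44.7, 42.5 and 45.9 CPM with DMSO and at 41.0, 35.0 and 23.5 CPM with DOX (log2 fold change -0.42, SE 0.194, adjusted p = 0.303), and at -0.22 without DOX replicate 3 (adjusted p = 0.0888). WARS2 did not overlap between groups. RARS2, for arginine, was at 47.6, 44.4 and 45.6 CPM with DMSO and at 45.6, 40.0 and 26.4 CPM with DOX (-0.29, adjusted p = 0.355). IARS2 was at 355, 346 and 351 CPM with DMSO and at 354, 326 and 235 CPM with DOX (-0.20, adjusted p = 0.408). RARS2 and IARS2 each had a DOX library within the DMSO range, and without DOX replicate 3 their log2 fold changes were -0.10 and -0.04. Across the 16 amino acid pairs, both partners had the same sign in 8, both negative in 5 and both positive in 3, and opposite signs in the other 8.

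The sign of the values went with the GC content of the transcripts in both classes. Canonical transcripts of the family ran from 38.1% to 61.7% GC, with medians of 48.4% for the cytosolic class and 50% for the mitochondrial class. All 13 synthetase mRNAs under 45% GC had a negative log2 fold change, 8 of them cytosolic (median -0.23) and 5 mitochondrial (median -0.26). All 6 over 55% GC had a positive one, namely FARSA, VARS1, CARS2, VARS2, AARS2 and SARS2, with a median of 0.39. Between 45% and 55%, 7 of 18 were negative and the median was 0.035. Across the 37 mRNAs, Spearman's rho of log2 fold change with GC content was 0.818 and Pearson's r 0.876, where all points share the same 6 libraries.

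The same relation ran through genes in general. Spearman's rho with GC content was 0.674 over the 20396 genes tested that had a GC value (0.539 over 20305 genes without DOX replicate 3). Over the 10358 of them of at least 10 CPM it was 0.83, and the median log2 fold change went from -0.37 at 35% to 40% GC to 0.40 at 60% to 65%. Measured against the DMSO mean, rho over the 37 mRNAs was 0.433, 0.752 and 0.884 in DOX replicates 1, 2 and 3, and -0.696, 0.778 and 0.113 in DMSO replicates 1, 2 and 3. The DMSO libraries thus also differed from each other with GC content, although over a smaller range of levels. Without DOX replicate 3, rho was 0.659 over the 37 and 0.756 over the 10358 genes.

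**Figure D4:**
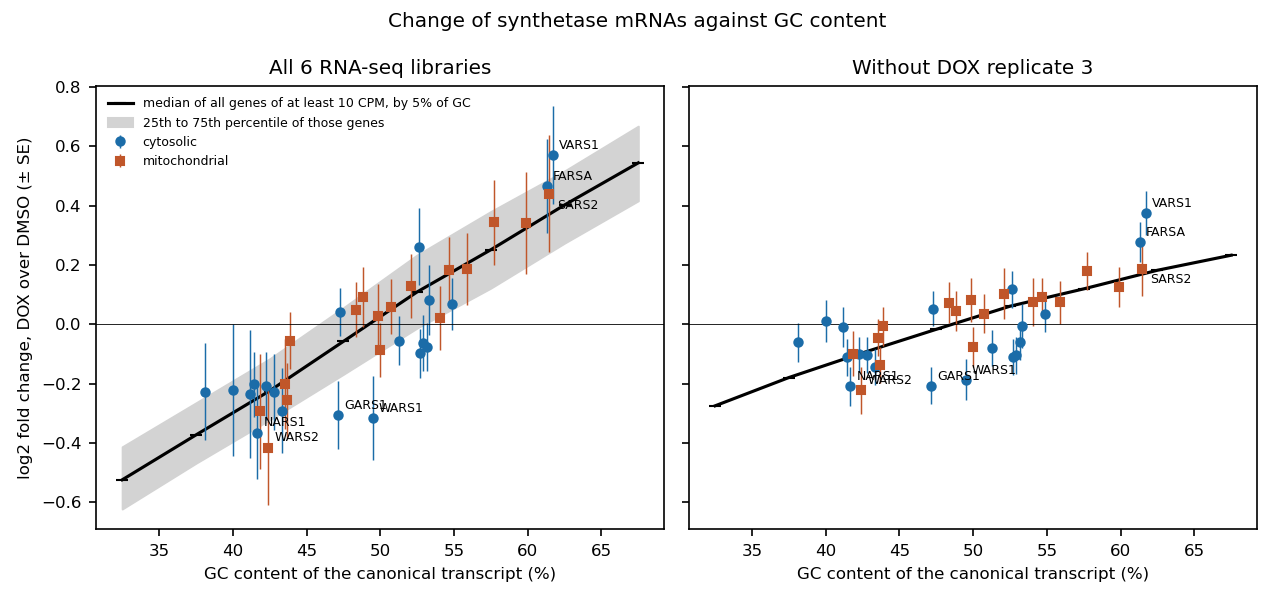
Log2 fold change (DOX over DMSO, ± SE) of the cytosolic (circles) and mitochondrial (squares) synthetase mRNAs against the GC content of the canonical transcript in percent, over all 6 libraries (left) and without DOX replicate 3 (right); the black line joins the medians of all genes of at least 10 CPM in steps of 5% GC, and the grey band is their 25th to 75th percentile. Most synthetases lie near the line of all genes, and several cytosolic ones, GARS1 and WARS1 among them, lie below the band in the left panel.

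A fit with an offset for GC content and length, chosen after these values were seen, took this relation out of each library, and rho over the 37 fell to 0.125. Over 6 libraries this fit called 0 of the 37 synthetase mRNAs (edgeR), with 3 higher and 8 lower at an unadjusted p under 0.05, beside 8.31% and 7.09% of all genes. The cytosolic median was then -0.05 and the mitochondrial median 0.0060. With DOX replicate 3 left out, it called VARS1 higher (log2 fold change 0.18, adjusted p = 0.0272) and 4 cytosolic mRNAs lower, beside 2.03% and 2.07% of all genes. These were GARS1 (-0.18, adjusted p = 0.0224), WARS1 (-0.20, adjusted p = 0.0397), CARS1 (-0.17, adjusted p = 0.0277) and SARS1 (-0.15, adjusted p = 0.0477). FARSA was no longer called (0.12, adjusted p = 0.118). VARS1 and GARS1 were thus called without DOX replicate 3 both with and without the offset.

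Synthetase genes with the promoter element were compared by their values only. The 7 cytosolic genes with TGATGNAA had a median log2 fold change of -0.23, with 6 of 7 below 0, and the 9 cytosolic genes with a window but no match had -0.098, with 5 of 9 below 0. The medians without DOX replicate 3 were -0.11 and 0.01, with 7 of 7 and 4 of 9 below 0. The 7 included AARS1 at only -0.0069, which was at 0.08 over 6 libraries. With the GC and length offset in addition the medians were -0.095 and 0.074, again with 7 of 7 and 4 of 9 below 0. There the value nearest to 0 among the 7 was -0.0095. Of the mRNAs called lower in that last fit, GARS1 and CARS1 have the element printed above, and WARS1 and SARS1 have windows with no match.

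Other genes of tRNA charging gave few calls. None of 18 such genes was called over 6 libraries (edgeR), with 2 higher and 1 lower at an unadjusted p under 0.05, near the shares of all genes (10.7% and 4.3%). Without DOX replicate 3, 1 of 18 was called, beside 3.76% higher and 3.29% lower of all genes. It was XPOT, the nuclear exporter of tRNAs, which fell from 423, 392 and 429 CPM to 343 and 317 CPM (log2 fold change -0.33, adjusted p = 0.0122). Of the scaffold proteins of the complex, AIMP1 had a log2 fold change of -0.18 (adjusted p = 0.477) over 6 libraries. AIMP2 had 0.17 (adjusted p = 0.311). EEF1E1 had -0.52 (adjusted p = 0.307), with 18.9, 15.3 and 17.3 CPM with DMSO and 16.3, 12.3 and 6.97 CPM with DOX. With DOX replicate 3 left out, EEF1E1 was at -0.27 and AIMP1 at -0.03.

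The 15 genes of the amino acid response gave mostly negative values. None of the 15 was called over 6 libraries (edgeR), with 6 lower at an unadjusted p under 0.05 (beside 4.3% of all genes) and a median log2 fold change of -0.26. This median rests in part on DMSO replicate 3, without which it was -0.078, with 10 of 15 below 0. DDIT3, for example, was at 28.6, 47.6 and 86.1 CPM in DMSO replicates 1, 2 and 3. Without DOX replicate 3, 7 of the 15 were called lower, beside 3.29% of all genes. All 15 then had a negative value, with a median of -0.31 and the highest at only -0.017. ATF4, the factor that binds the element above, went from 480.1, 501 and 540.5 CPM with DMSO to 425, 419 and 429 CPM with DOX (log2 fold change -0.26, adjusted p = 0.303), and was called without DOX replicate 3 (-0.27, adjusted p = 0.0249). ASNS, asparagine synthetase, fell from 9.83, 12.0 and 12.9 CPM to 8.66 and 8.05 CPM without that library (-0.47, adjusted p = 0.023). DDIT3 and TRIB3, both induced by ATF4 in stress, were not called without it (-0.65, adjusted p = 0.156, and -0.23, adjusted p = 0.139). Exons of DDIT3 and MARS1 overlap by 355 bases on opposite strands. With the GC and length offset and without DOX replicate 3, 10 of the 15 were called lower, beside 2.07% of all genes.

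The second question was whether translation of the synthetase mRNAs changed, and the Ribo-seq reads on them were too few to tell. Reads on genes numbered 210186 to 1002424 per Ribo-seq library, of which 7, 9 and 25 in the DMSO libraries and 8, 10 and 13 in the DOX libraries lay on the 37 synthetase genes. These 72 reads were 0.00198% of all Ribo-seq reads on genes, while the same genes had 0.746% of the RNA-seq reads, a share 377-fold higher. No read at all was seen on 13 of the 37, 10 of them mitochondrial. A further 19 had 1 to 3 reads over the 6 libraries together, and 34 of 37 had at most 3 reads in any library. A count of 0 allows up to 3 reads, which is 2.99 to 14.3 CPM in these libraries, for counting error only.

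Only FARSB and PARS2, the mitochondrial proline enzyme, reached 10 Ribo-seq reads. FARSB had 0, 2 and 3 reads with DMSO and 2, 2 and 1 with DOX. PARS2 had 2, 2 and 1 reads with DMSO and 2, 4 and 0 with DOX, although its mRNA was among the lowest of the family in RNA-seq, at 19.0 ± 0.671 CPM with DMSO (SD, n = 3) and 19.2 ± 1.35 with DOX. YARS1, for tyrosine, had 6 reads, all in DMSO replicate 3. Translation efficiency (TE, Ribo-seq relative to RNA-seq) of FARSB changed by 0.60 on the log2 scale with an SE of 1.12 (adjusted p = 0.875), and that of PARS2 by 0.46 with an SE of 1.13 (adjusted p = 0.891). Neither was called by edgeR or by DESeq2, although DESeq2 called 28 of all 1334 genes higher and 52 lower in TE. Of the same 1334 genes, edgeR called 0% higher and 0.15% lower. At an unadjusted p under 0.05 the share was 21.6% of all genes in TE and 8.9% in Ribo-seq, and 0 of these 2 in either. Ribo-seq alone gave 0.36 (SE 1.48) for FARSB and 0.32 (SE 1.47) for PARS2, with an adjusted p of 0.984 for both (edgeR). There edgeR called 0 of 1607 genes, and DESeq2 called 6 higher and 6 lower, neither of these 2 among them. The other 35 synthetase genes entered neither test, and a change in their translation was not detectable at this depth.

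**Figure D5:**
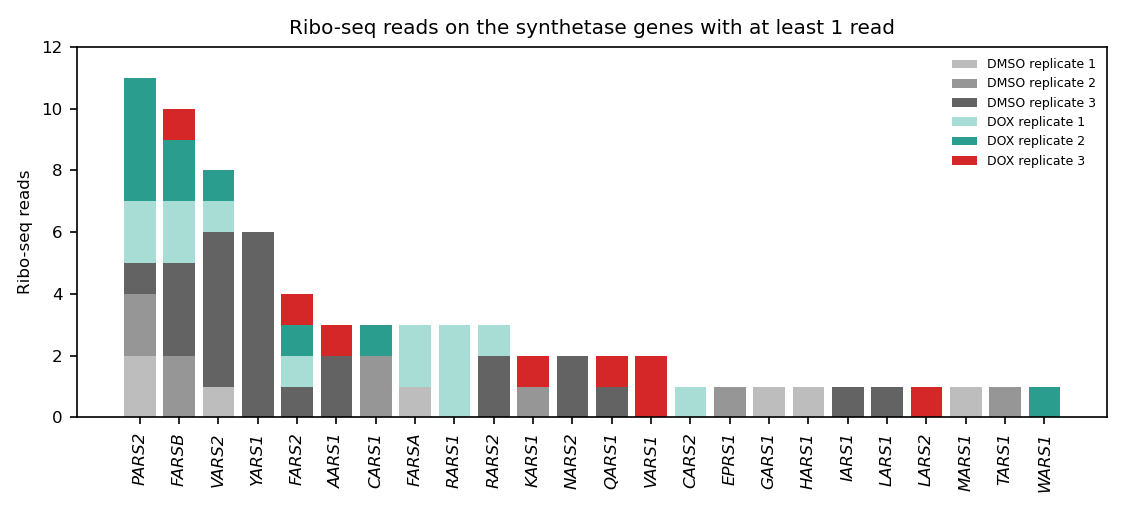
Ribo-seq reads on the 24 synthetase genes with at least 1 read (y axis, reads summed over the 6 libraries, with each library in its own shade). The highest bars, PARS2 and FARSB, hold 11 and 10 reads, and most genes have 1 to 3.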

How the data were processed

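Libraries of 293T4A cells given DMSO or DOX (3 per assay and treatment) were grouped by their labels. The counts were deposited by the authors as raw reads per gene. Per the methods, the linker was trimmed from Ribo-seq reads, reads on ribosomal RNA were removed, the others were mapped with STAR, and only unique reads on exons were counted. The methods name GRCh38 for mapping, the labels GRCh37 and Ensembl 75, and the use of strand is not stated. Reads shared with the 14 pseudogenes that GENCODE names for 12 of the genes could be lost or split. The deposited table of translation efficiency also holds log2 ratios, p-values and dispersions computed by the authors with RiboDiff, which were not used; only its symbols and identifiers were.

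Reads without a gene (69.2% to 94.1% of all RNA-seq reads), 92 spike-in rows and viral rows were left out of library sizes. For RNA-seq, a minimum of 10 reads in 3 or more libraries was required, which all 37 passed, and for TE and Ribo-seq a minimum of 10 reads summed per assay. Counts were scaled with TMM and tested with edgeR 4.0.16 (quasi-likelihood F-test, Benjamini-Hochberg, 0.05; R 4.3.3); TE was tested as assay by treatment interaction over 12 libraries. GC content and length came from the canonical transcript of GENCODE release 44 (99.2% of genes tested). The GC offset used natural splines with 5 degrees of freedom per library on log counts plus 0.5.

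The genes, the lists (18 charging, 15 amino acid response, markers) and the tests were chosen with earlier results of these data known. Genes named with values were, in each class, the 4 largest rises and 4 largest falls, the highest and lowest level per length, GARS1 and KARS1, HARS1 and HARS2, all called genes and those with 10 Ribo-seq reads; CARS1, SARS1, LARS1, YARS1 and XPOT were named after their values were seen. Alternatives were DESeq2 1.42.0 (size factors, Wald test), library totals, no filter, 60 summed reads, limma 3.58.1 voom with quality weights, a replicate block and each replicate left out. Values of single genes for 2 members are not reported here. The tests were tested on simulated data. No 2 libraries held the same counts. Python 3.11.15, pandas 2.3.3 and matplotlib 3.10.9 were used.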

Additional observations from a re-analysis of the deposited data

How the results depend on the processing

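Leaving out DOX replicate 3 changed more calls than leaving out any other library. Over the libraries left out in turn, 0 to 2 synthetase mRNAs were called higher and 0 to 1 lower, 0 to 1 other charging gene and 0 to 7 amino acid response genes lower, and the median log2 fold change ran from -0.074 to -0.0071 for all 37, from -0.187 to -0.0699 for the cytosolic and from 0.026 to 0.073 for the mitochondrial class; the calls all came without DOX replicate 3. Voom with quality weights called 7 synthetase mRNAs higher and 11 lower, 4 charging genes higher and 6 lower and 12 response genes lower, with a mitochondrial median of 0.094. The settings that follow, other than those named over 6 libraries, also left out DOX replicate 3 and were chosen after seeing the data. With the GC and length offset, 1 synthetase mRNA was higher and 4 lower, 2 charging genes higher and 1 lower and 10 response genes lower, with medians of -0.0095 (all 37), -0.036 (cytosolic) and 0.0086 (mitochondrial); over 6 libraries the offset gave -0.051 and 0.0060 for the classes. With the replicate block, 4 synthetase mRNAs were higher and 4 lower, beside 10.4% and 10.9% of all genes, 3 charging genes higher and 5 lower and 8 response genes lower, with medians of -0.0097 (all 37) and -0.066 (cytosolic). DESeq2's Wald test gave 2 higher and 2 lower, 1 charging gene higher and 3 lower and 6 response genes lower, with a median of -0.0097. Library totals gave 3 higher, 2 charging genes higher and 1 lower and 7 response genes lower, with medians of 0.049, -0.013 and 0.13 (all 37, cytosolic, mitochondrial), and over 6 libraries 0.042, -0.053 and 0.15. No filter over 6 libraries gave medians of -0.098 (all 37) and 0.0089 (mitochondrial). The cause was not tested.

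Single values changed sign for 8 of the 20 named mRNAs, none of them called in the setting concerned. AARS1 was at -0.039 with voom, -0.0069 without DOX replicate 3, -0.076 with the GC offset and, without DOX replicate 3, -0.083 with the offset and -0.0095 with DESeq2. FARSB was at 0.0043 with the offset over 6 libraries and, without DOX replicate 3, at 0.010 alone, 0.12 with the offset, 0.018 with the block, 0.0076 with DESeq2 and 0.066 with library totals; its values with a library left out ran from -0.40 to 0.010. PARS2 was at -0.017 with no filter, -0.0082 without DMSO replicate 3, -0.013 without DOX replicate 2 (up to 0.076 without DOX replicate 3) and -0.11 with the offset. VARS2 was at -0.013 with the offset over 6 libraries, and without DOX replicate 3 the offset gave -0.039 for VARS2, -0.010 for CARS2, 0.023 for IARS2 and 0.0195 for RARS2. Library totals gave 0.012 for HARS2, and 0.011 for IARS2 without DOX replicate 3. Over 6 libraries the replicate block changed no call of a synthetase gene. Replicate numbers are shared by the groups, but the labels do not state that they pair the samples. Same-numbered RNA-seq libraries deviated together with r of 0.394, -0.362 and 0.0229, and Ribo-seq libraries with -0.129, 0.0232 and -0.0568. RNA-seq libraries with unlike numbers had r from -0.453 to 0.466, so these values do not settle the pairing. Few Ribo-seq reads limit TE: with at least 60 summed reads no synthetase gene could be tested, and with no filter 24 were tested, 0 called and 2 at an unadjusted p under 0.05. Of all 11670 genes tested with no filter, 3 were called higher and 4 lower. Their share at an unadjusted p under 0.05 is not given here, so the 2 have no background beside them.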
